A study of Mus musculus with 119 samples.

Results

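Bone marrow–derived macrophages (BMDMs) that expressed kinase-inactive TPL-2 were compared with wild-type (WT) BMDMs before any LPS was given. The comparison was chosen by sample label, and it held 12 RNA-seq libraries, with another 107 in the series: 6 of unstimulated Map3k8[D270A] cells (replicates 1 to 6) and 6 of unstimulated WT cells (replicates 4 to 9). Both genotypes were of strain C57BL/6(NIMR), were labelled as one TPL-2 experiment and as untreated, and were rested overnight in low-serum medium. The Map3k8[D270A] allele changes the coding sequence in every cell of the mouse, so the mutant macrophages also developed without TPL-2 kinase activity. The ages and sexes of the mice and the number of mice behind the replicates were not given in the labels or methods. Nor were the dates or runs of library preparation, so the p values measure the spread between libraries. In the main fit that spread was pooled over 62 libraries, those after LPS and of Elk1-/-Elk4-/- cells included. It is therefore not the spread of these 12 alone.

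TPL-2 is the protein kinase encoded by Map3k8. In resting macrophages it is held inactive in a complex with NF-κB1 p105 and ABIN-2. LPS acting on TLR4 activates the IKK complex, which triggers proteolysis of p105 and frees TPL-2 to phosphorylate MKK1/2, and these activate ERK1/2. Little TPL-2 activity is therefore thought to exist in unstimulated cells, and the comparison asks which transcripts differ when the pathway has not been switched on by LPS.

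The deposited values are normalized and lie on a log2 scale from which counts could not be read back, and the methods give a typical sequencing yield but not that of single libraries. Levels are given on that scale as the lowest, median, and highest library of each group, and differences are mutant minus WT. Whether a difference of 1 is exactly 2-fold is not known. Adjusted p values came from limma (Benjamini-Hochberg) and covered the 11884 genes that passed a filter on low values, a level of 3.32 in at least 4 libraries of the fit. No 2 libraries were identical. Expression on the linear scale, summed over 15 macrophage genes, ranged from 450262 to 505179 in WT and from 439330 to 474822 in mutant libraries, against 603 to 1063 and 612 to 1104 over 14 neutrophil genes. The highest neutrophil sums were those of WT replicate 9 and Map3k8[D270A] replicate 4. In bulk RNA, fewer cells of a type and less RNA per cell cannot be told apart. Map3k8 mRNA does not check the genotype, because the allele is a point mutation: it was 8.83, 8.95, and 9.02 in WT and 8.77, 8.82, and 8.95 in mutant libraries, a difference of -0.10 (SE 0.05, adjusted p = 0.498).

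Of the loci that differed, 4 were annotated as microRNA hairpins, of 9 hairpin loci tested (1.44% of all genes tested were called). Of the 4, Mir686 passed the filter on low values through mutant libraries alone and could be called in 1 direction only. RefSeq (GRCm38.p6) held the mature sequence of 3 of them, and these are shown because their short loci were among the features with the largest differences. The seed, bases 2 to 8, is in capitals, and no 2 of the seeds are the same.
mmu-miR-686 (chr14:54616746-54616767, minus strand): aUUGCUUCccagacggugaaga
mmu-miR-703 (chr5:98475616-98475636, minus strand): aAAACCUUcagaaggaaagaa
mmu-miR-8112 (chr6:71271745-71271764, plus strand): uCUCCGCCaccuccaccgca
Mir684-1 is the fourth locus. Each hairpin lies within a longer gene: Mir686 in Psmb5, Mir703 in Cfap299, Mir8112 in Krcc1, and Mir684-1 in Dusp19. The methods name no selection of small RNA, so the values at these loci are reads assigned to the hairpin interval and are not measurements of the mature microRNA.

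Few transcripts differed between the genotypes without LPS, and most differences were small. Of the 11884 genes tested, 171 (1.44%) had an adjusted p below 0.05, with 99 (0.833%) lower and 72 (0.606%) higher in mutant cells. The count was 64 in a fit of the 12 libraries alone and 81 without Map3k8[D270A] replicate 4. In WT replicates 4 to 6 with Map3k8[D270A] replicates 1 to 3 alone it was 579. It was 349 with a term that set these replicates apart from the others, and 773 with a block on replicate number. At an unadjusted p below 0.05 there were 1420. The difference was under 0.5 in 140 of the 171. In 86 of them, 56 lower and 30 higher, the mutant and WT libraries did not overlap, as was the case for 184 of all genes tested. With a difference of at least 1 as a further condition, 8 genes (0.0673%) were changed. Gfra2, Ankrd29, Phyhip, and Cables1 were higher, and Prex2, Lrrc17, AY074887, and Mir684-1 were lower.

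The 4 higher genes are not known as parts of the TPL-2 pathway, and all were expressed at modest or low levels. Gfra2 encodes the GPI-anchored coreceptor for neurturin. Its level was 3.10, 3.27, and 3.37 in WT and 3.80, 4.88, and 5.40 in mutant libraries, the widest spread of the 4 (difference 1.56, SE 0.24, adjusted p = 1.46e-05). Every mutant library lay above every WT library, although the lowest mutant library was closer to WT than to the highest mutant one. The call was lost with a block on replicate number. It was also lost in WT replicates 7 to 9 with mutant replicates 4 to 6 alone (adjusted p = 0.300 by limma). Ankrd29, an ankyrin-repeat protein gene, was at 3.68, 3.87, and 3.97 in WT and at 5.09, 5.32, and 5.52 in mutant libraries (difference 1.499, SE 0.11, adjusted p = 8.93e-16). Cables1, whose product links CDK5 and ABL, was at 5.08, 5.37, and 5.57 against 6.35, 6.64, and 6.84 (difference 1.29, SE 0.09, adjusted p = 1.59e-16). Phyhip, which encodes a protein that binds phytanoyl-CoA hydroxylase, was at 1.63, 1.67, and 1.84 against 2.78, 3.01, and 3.45 (difference 1.37, SE 0.11, adjusted p = 1.72e-14). No WT library reached the filter for Phyhip, at any time, and the gene was tested through 6 mutant libraries, 2 of them unstimulated; a gene that enters in this way had to be higher in mutant cells.

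The 4 lower genes had narrow mutant groups, none of which overlapped WT. Most of these mutant values were low, however. Of the 6 unstimulated mutant libraries, 1 reached the filter level of 3.32 for Prex2, 1 for Lrrc17, and 0 for Mir684-1. All 6 reached it for AY074887. A narrow spread at such low values is not read here as a trait of the mutant. Prex2 encodes an activator of the GTPase Rac. It was at 4.83, 5.09, and 5.30 in WT and at 3.14, 3.25, and 3.36 in mutant libraries (difference -1.83, SE 0.31, adjusted p = 0.000138). Lrrc17, a gene for a secreted leucine-rich repeat protein, was at 4.39, 4.59, and 4.85 against 2.92, 3.07, and 3.37 (difference -1.51, SE 0.12, adjusted p = 1.72e-14). AY074887 was at 5.37, 5.52, and 5.73 against 4.03, 4.18, and 4.36 (difference -1.36, SE 0.18, adjusted p = 8.94e-07), and its locus on chromosome 9 overlaps Psma4 on the opposite strand. Mir684-1 was at 3.60, 4.02, and 4.35 against 2.93, 2.97, and 3.02 (difference -1.04, SE 0.18, adjusted p = 0.000155). WT libraries of Mir684-1 were spread over more than the gap between the groups, whereas its mutant libraries, all under the filter level, were nearly level.

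**Figure D1:**
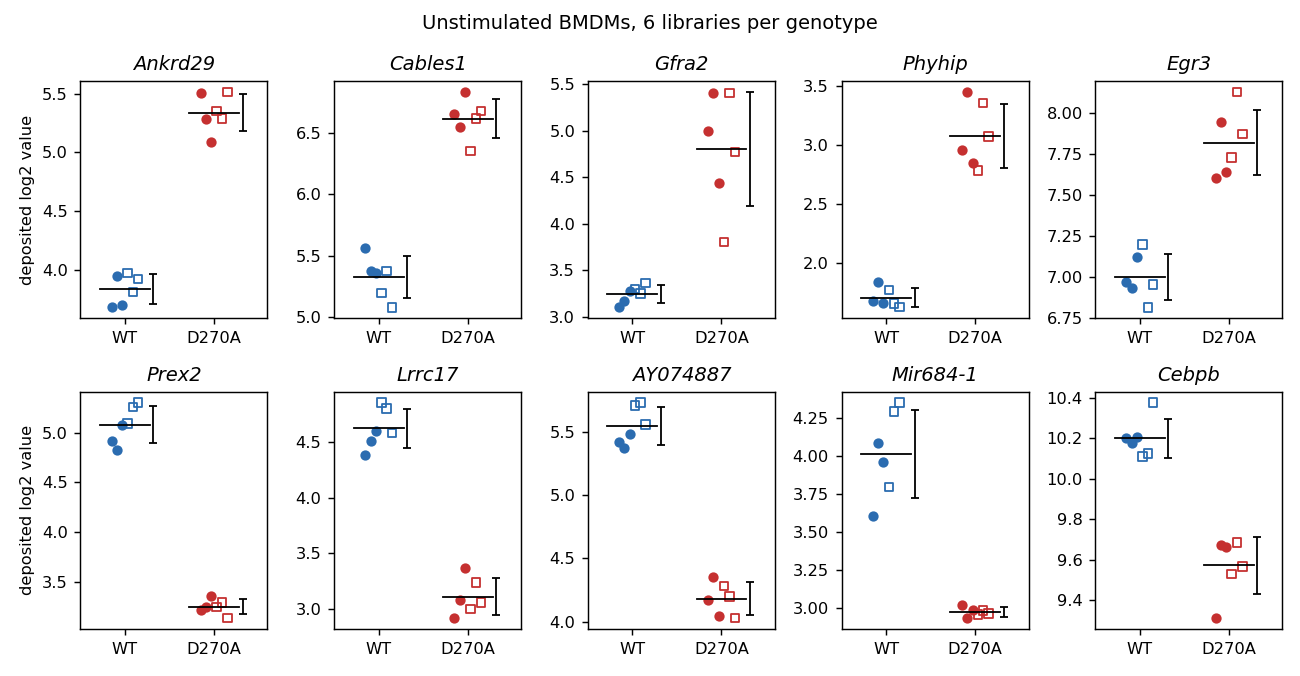
Deposited log2 values of 10 genes in each unstimulated library (WT replicates 4 to 6 and D270A replicates 1 to 3 as filled circles, WT 7 to 9 and D270A 4 to 6 as open squares), with the mean as a line and the SD as a bar (n = 6 per genotype). In each panel the 6 D270A libraries lie to one side of the 6 WT libraries, and Gfra2 has the widest spread among D270A libraries, from 3.80 to 5.40. The vertical axes do not start at 0.

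The genes that differed were not spread evenly over the genome. On chromosome 18, which carries Map3k8 (from 4331325 to 4352953), 16 of the 40 genes tested in the first 20 Mb were called (40%), against 4 of 248 (1.61%) on the remainder of that chromosome and 131 of 11206 (1.17%) among genes not placed on chromosome 14 or 18. The window was chosen after the positions were seen, so no test is given. The 20 calls on the whole chromosome became 11 in the 12 unstimulated libraries alone, and 33 and 13 in replicates 4 to 6 of WT with 1 to 3 of the mutant and in the other replicates. Of the 16 genes, 11 were higher and 5 lower, and their start sites lay 0.259 to 10.4 Mb from that of Map3k8. The nearest tested neighbours of Map3k8, 4833419F23Rik and Mtpap, had differences of -0.11 and 0.03 and were not called.

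Whether the called genes in that window share functions was not tested. Besides Ankrd29 and Cables1, the largest increases were those of Abhd3, a phospholipase gene (0.99, SE 0.07, adjusted p = 8.93e-16), and Colec12, which encodes a scavenger receptor with a collagen-like domain. Colec12 was at 9.71, 9.94, and 10.32 in WT and at 10.60, 10.88, and 11.12 in mutant libraries (difference 0.89, SE 0.11, adjusted p = 5.83e-08). Its groups did not overlap. Among other unstimulated cells, however, Colec12 was at 10.49 to 10.52 in WT cells with DMSO and at 10.15 to 10.59 in Nfkb1[SS/AA] cells. These values reach to just under the lowest mutant library. Elk1-/-Elk4-/- (9.76 to 9.83) and RSKi47-treated cells (9.72 to 10.09) were within the range of untreated WT. Lama3, a laminin chain gene, differed by 0.87 with overlapping groups (adjusted p = 0.000808), and Psma8, which encodes a proteasome subunit of the testis, by 0.55 (adjusted p = 6.49e-05). Mpp7 and Ttc39c differed by 0.43 and 0.44. Zeb1, a transcription factor gene, was at 5.14, 5.35, and 5.43 in WT and at 4.48, 4.63, and 4.71 in mutant libraries (difference -0.71, SE 0.16, adjusted p = 0.0124). Tmem241, a transmembrane protein gene, was also lower (-0.67, SE 0.05, adjusted p = 7.49e-16). Npc1, which encodes the cholesterol transporter of late endosomes and lies between Tmem241 and Ankrd29, was at 12.45, 12.51, and 12.59 in WT and at 12.04, 12.18, and 12.30 in mutant libraries (difference -0.34, SE 0.04, adjusted p = 1.32e-07).

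A second cluster lay on chromosome 14, where 10 of 83 genes tested between 65 and 80 Mb were called (12.05%), against 10 of 307 (3.26%) on the remainder of the chromosome. These limits were also set after the positions were seen. Phyhip, within the window, and Mir686, on the remainder, passed the filter on low values through mutant libraries alone. Each could be called only as higher. Without Phyhip, 9 genes of the window were called. The 20 calls on this chromosome fell to 10 without WT replicate 5 or 8, to 8 in the 12 unstimulated libraries alone, and to 6 in WT replicates 7 to 9 with mutant replicates 4 to 6, where Gfra2, Tnfrsf10b, and Gm9199 were not called. The 6 higher genes were Gfra2, Phyhip, Egr3, Tnfrsf10b, 4930480K23Rik, and Adra1a, and 5 of them start between positions 69732784 and 70890107. Tnfrsf10b, which encodes the mouse receptor for the death ligand TRAIL, was at 6.24, 6.57, and 6.69 in WT and at 7.14, 7.38, and 7.66 in mutant libraries (difference 0.88, SE 0.10, adjusted p = 1.65e-08). Unstimulated Elk1-/-Elk4-/- cells were at 7.01 to 7.23, which overlapped the mutant, and no library of the other unstimulated groups was above 6.69. The long noncoding RNA gene 4930480K23Rik ends next to the start of Tnfrsf10b on the same strand and differed by 0.80 (adjusted p = 2.29e-08). Adra1a, an adrenergic receptor gene, differed by 0.60 with overlapping groups (adjusted p = 0.0186). The 4 lower genes were Gm9199, Lacc1, Dnajc15, and Epsti1, with differences of -0.56, -0.42, -0.42, and -0.34. Gm9199 is a pseudogene that overlaps Cysltr2.

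Called genes in both windows differed by more than those elsewhere: the median size was 0.50 in the window of chromosome 18, 0.70 in that of chromosome 14, and 0.20 among the 145 called of 11761 tested outside them (1.23%). Without Phyhip, which could be called in 1 direction only, the median of the 9 others on chromosome 14 was 0.60. A difference of at least 0.5 was found in 8, 7, and 16 genes, respectively. The labels give a shared strain for both genotypes, and the methods describe the mutant strain as fully backcrossed. Sequence differences between the strains were not analysed here, so for the genes near Map3k8 the kinase mutation and anything else linked to the allele cannot be told apart. The window of chromosome 14 is not linked to Map3k8, and whether the strains differ there was not tested.

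**Figure D2:**
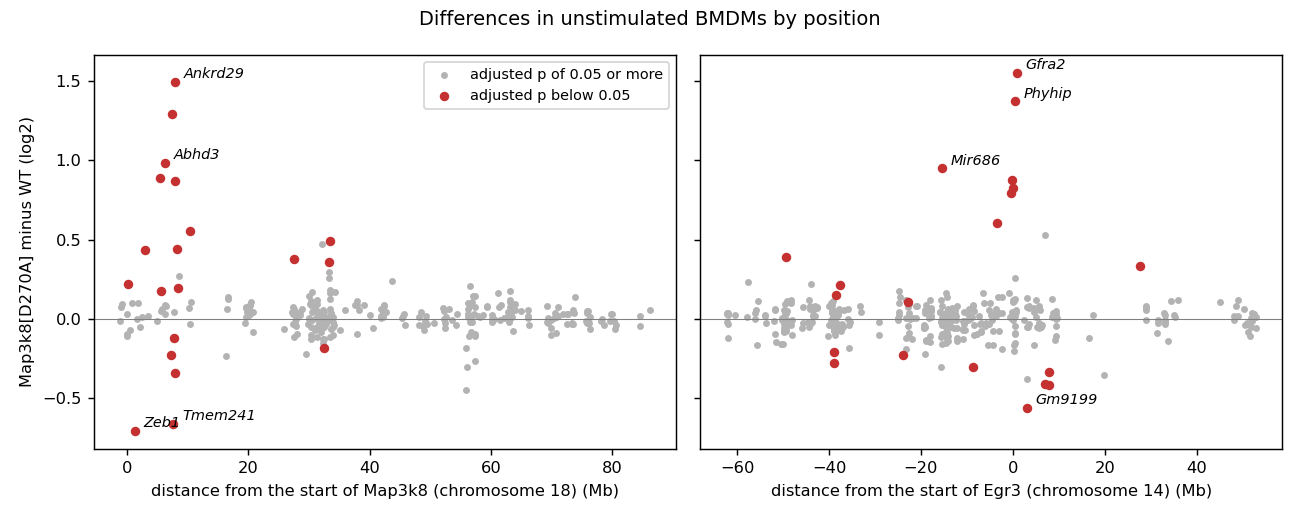
Difference between Map3k8[D270A] and WT unstimulated BMDMs (vertical axis, log2) for each gene tested on chromosomes 18 and 14, by distance in Mb from the start of Map3k8 and of Egr3 (horizontal axes). Genes with an adjusted p below 0.05 (red) gather near Map3k8, where 16 of the 40 genes in the first 20 Mb were called, and around Egr3, where 10 of 83 were called. Phyhip and Mir686 of chromosome 14 could be called only as higher.

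Among genes that ERK1/2 signaling is known to induce, Egr3 was higher and Cebpb lower in unstimulated mutant cells, and the other 35 of 37 tested immediate early and feedback genes did not pass (4 of the 37, Egr3 and Cebpb included, had an unadjusted p below 0.05). Over all genes tested, 1.44% were called and 11.9% had an unadjusted p below 0.05. The list's median was 0.04, against -0.00 over all genes tested. Egr3 encodes a zinc-finger transcription factor that TCFs and SRF induce. It was at 6.81, 6.96, and 7.20 in WT and at 7.60, 7.80, and 8.13 in mutant libraries (difference 0.82, SE 0.13, adjusted p = 6.88e-05). Cebpb, which encodes the transcription factor C/EBPβ of myeloid cells, was at 10.11, 10.19, and 10.38 in WT and at 9.31, 9.62, and 9.69 in mutant libraries (difference -0.63, SE 0.13, adjusted p = 0.00213). Both genes separated the genotypes without overlap. Among other unstimulated cells, however, Cebpb was as low as in the mutant in WT cells with DMSO (9.40 to 9.61) and in Elk1-/-Elk4-/- cells (9.21 to 9.81). Egr3 lies within the window of chromosome 14, and Cebpb lies on chromosome 2. The related Egr1 and Egr2 had differences of 0.17 (adjusted p = 0.697) and 0.28 (adjusted p = 0.443), Fos one of 0.10 (adjusted p = 0.753), and Dusp6, a phosphatase gene of ERK1/2 feedback, one of 0.14 (adjusted p = 0.550).

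The direction of Egr3 turned with LPS, whereas that of Cebpb did not. At 1 h of LPS, Egr3 reached 9.79, 10.04, and 10.21 in WT but 8.10, 8.28, and 8.63 in mutant libraries. Its difference came to -1.16, -1.69, and -0.63 after 0.5, 1, and 2 h, and each departed from the unstimulated difference (interaction adjusted p = 5.86e-11, 1.39e-14, and 2.34e-07). Mutant cells thus started above WT and ended below it. Cebpb was lower in mutant cells at each of the 3 times, with differences of -0.98, -1.01, and -1.53, and the last was larger in size than the unstimulated one (interaction -0.91, adjusted p = 0.000342).

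Other libraries of the same genotypes, taken after LPS, showed which unstimulated differences recurred. They carry the same replicate numbers as the unstimulated libraries and may come from the same mice or cultures, which the labels do not say. The recurrence may therefore not be independent of the unstimulated result. At 0.5 h, 27 of the 99 lower genes were again lower (0.892% of all genes were) and 33 of the 72 higher ones again higher (0.48%). At 1 h the counts were 59 (4.64%) and 46 (5.14%), and at 2 h 47 (13.1%) and 37 (14.6%). The opposite direction was called in 1 gene at 0.5 h and 2 at 1 h, all of them higher without LPS, and at 2 h in 2 of the lower and 6 of the higher genes. In all, 39 genes, 18 lower and 21 higher, passed in the same direction at all 3 times, as did 87 of all genes tested in 1 direction (0.732%). The 39 became 25 in the 12 unstimulated libraries alone, 22 in WT replicates 7 to 9 with mutant replicates 4 to 6, and 20 with a replicate block. The 39 were 13 of the 16 called genes in the window of chromosome 18, 5 of the 10 in that of chromosome 14, and 21 of the 145 elsewhere. Phyhip, which could be called only as higher, is among the 5. The difference departed from its unstimulated value in 1 called gene at 0.5 h (0.109% of all genes did), in 6 at 1 h (2.02%), and in 31 at 2 h (15.5%). Ankrd29, Cables1, and Gfra2 had differences between 1.01 and 1.62 at every LPS time.

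A split between replicates limited the recurrence of several lower genes. Unstimulated libraries and those at 0.5 h showed low Prex2 in all Map3k8[D270A] replicates. At 1 h, Prex2 was at 3.26 to 3.41 in mutant replicates 1 to 3 but at 5.44 to 5.73 in mutant replicates 4 to 6, against 4.91 to 5.29 in WT. The second set of mutant libraries was therefore above WT, not below it. At 2 h the ranges were 3.25 to 3.62 and 5.21 to 5.63. In a fit with separate means for WT replicates 4 to 6 with mutant replicates 1 to 3 (the first set) and WT replicates 7 to 9 with mutant replicates 4 to 6 (the second), which was chosen after the data were seen, the mutant minus WT difference of Prex2 at 1 h was -1.79 in the first set and 0.36 in the second (test of the split, adjusted p = 3.97e-14).

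Of the 99 lower genes, 10 had a difference at 1 h that departed between the 2 sets of replicates, and of the 72 higher genes 2 did, against 61 of all genes tested (0.513%). The 10 were Prex2, AY074887, Rps15a-ps6, Mir703, Mir684-1, Mir8112, Gm8979, Lrrc17, Lyz1, and Rpl41, and the 2 were Lims2 and Hmgb1. No called gene of either chromosomal window was among them, which in sets this small is near the 0.513% of all genes tested. Rps15a-ps6, a ribosomal protein pseudogene within Nudcd3, was at 8.96 to 9.10 in mutant replicates 1 to 3 and at 10.04 to 10.13 in replicates 4 to 6, and WT libraries at 9.70 to 10.06. AY074887 was at 3.98 to 4.22 and at 5.27 to 5.42, with WT libraries at 5.38 to 5.95. Lrrc17 was lower in both sets, with differences of -1.64 and -0.77. By contrast, the differences of Ankrd29 (1.501 and 1.22), Cables1 (1.27 and 1.25), Gfra2 (1.69 and 1.56), Abhd3 (0.91 and 0.98), and Cebpb (-0.86 and -1.16) were present in both. In unstimulated libraries the 2 sets gave differences that departed from each other in 13 of all genes tested (0.109%), 1 of them, Rps19-ps3, among the 171.

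What distinguishes Map3k8[D270A] replicates 4 to 6 at 1 and 2 h from the same replicates without LPS and at 0.5 h is not in the labels, and it was not tested. For the 10 genes above, the genotype and any grouping of libraries that coincides with it in the unstimulated samples cannot be told apart.

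**Figure D3:**
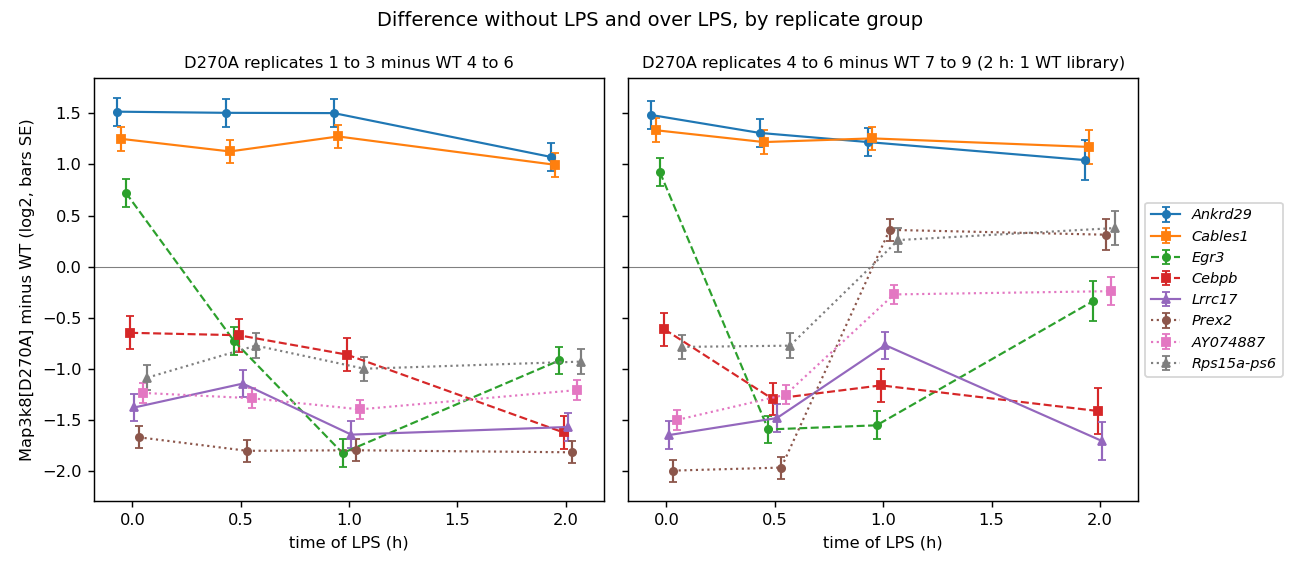
Difference between Map3k8[D270A] and WT BMDMs (log2, bars are SE) by time of LPS (h) for 8 genes, in D270A replicates 1 to 3 with WT 4 to 6 (left) and D270A replicates 4 to 6 with WT 7 to 9 (right, a single WT library at 2 h). Ankrd29 and Cables1 stay above 0 and Cebpb below 0 in both panels, Egr3 crosses from above to below 0, and Prex2 goes from -1.99 to 0.36 between unstimulated cells and 1 h in the right panel only, as AY074887 and Rps15a-ps6 move toward or past 0.

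For the transcripts of the TPL-2 pathway itself no difference was called. None of 21 tested genes of the complex, its kinases, and its transcription factors had an adjusted p below 0.05 by limma (1 had an unadjusted p below 0.05). Over all genes tested, 1.44% were called and 11.9% had an unadjusted p below 0.05, so no call among 21 is near that share. The differences of the 21 ran from -0.10 to 0.09. With a replicate block, Rps6ka3, which encodes the kinase RSK2, was called at 0.36 (adjusted p = 0.0400), and the difference of Map3k8 reached -0.22 over the settings tried. The block compares only WT and mutant libraries that share a replicate number, and these belong to different sets of replicates. The 21 genes included Nfkb1 (-0.03), which encodes p105, Tnip2 (0.03), which encodes ABIN-2, and Map2k1 (0.06), which encodes MKK1. Of 6 genes for 14-3-3 proteins, which bind phosphorylated partners that include TPL-2, Ywhae (0.14, adjusted p = 0.0141) and Ywhaz (0.15, adjusted p = 0.0157) were higher, where 0.606% of all genes tested were. Both differences were small beside those above, and each gene lost the call in 6 of 23 other settings.

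Cytokine and interferon-stimulated genes were likewise not called before stimulation. None of 25 cytokine and inflammatory genes passed by limma (3 at an unadjusted p below 0.05). Over all genes tested, 1.44% were called and 11.9% had an unadjusted p below 0.05. The absence of calls in lists of this size is near that share. Their differences ran from -0.12 to 0.31. The highest was that of Il1rn (adjusted p = 0.382), which encodes the IL-1 receptor antagonist, and Ccl2, a monocyte chemokine gene, was at 0.29 (adjusted p = 0.205). With other settings Ccl2 was called in 3 (differences up to 0.44) and Il1rn in 1. None of 24 interferon-stimulated genes passed (1 at an unadjusted p below 0.05), though 1 was lower with a replicate block and 1 in the first set of replicates alone. Of these, 21 had a negative difference, with a median of -0.06, but the median was -0.11 in the first set of replicates and 0.01 in the second. None of 15 macrophage identity genes passed either (3 at an unadjusted p below 0.05), and Adgre1, Cd68, and Lyz2 had differences of -0.10, 0.01, and -0.10.

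Genes of uptake, lysosomes, plasminogen activation, and glycolysis gave 1 called gene per list, where 1.44% of all genes tested were called. Colec12 was the 1 of 10 scavenger receptor genes that passed, and Npc1 the 1 of 20 lysosome and cholesterol genes. Plau, which encodes urokinase, was the 1 of 5 genes of plasminogen activation. It was at 12.84, 13.09, and 13.40 in WT and at 13.14, 13.44, and 13.77 in mutant libraries, with overlap (difference 0.39, SE 0.10, adjusted p = 0.0313), and the call was lost in 11 of 23 other settings, the 12 unstimulated libraries alone included. Gapdh was the 1 of 14 glycolysis genes. It was at 13.18, 13.26, and 13.51 in WT and at 13.64, 13.79, and 13.996 in mutant libraries, with no overlap (difference 0.49, SE 0.06, adjusted p = 1.32e-07). Of the 14, 9 had an unadjusted p below 0.05, where 11.9% of all genes tested did. In the first set of replicates alone 4 were called (of 579 genes called in all) and in the second 0 (of 81). Another 12 of the 14 had a positive difference, as had 5780 of the 11884 genes tested. The median of the 14 was 0.16 (0.13 and 0.15 in the 2 sets of replicates). At 1 h of LPS, the difference of Gapdh was 0.37 in the first set and 0.11 in the second. None of 10 cell cycle genes passed by limma (0 at an unadjusted p below 0.05), with Mki67 at -0.20 and Pcna at 0.10.

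Marker genes of other cell types were mostly too low to be tested. Of 14 neutrophil genes 9 were tested and none passed by limma, nor did any have an unadjusted p below 0.05. Over all genes tested these shares were 1.44% and 11.9%, so few or no calls are expected in lists this short. S100a8 and S100a9 had differences of -0.37 and -0.26, and Mmp8 one of 0.09. Tested genes numbered 3 of 7 for dendritic cells, 1 of 5 each for B cells, T cells, and endothelial cells, and 2 of 7 for fibroblasts, and none passed (1 dendritic cell gene had an unadjusted p below 0.05). No erythroid or mast cell gene reached the filter. In other settings S100a8 was called in 2 and Zbtb46, a dendritic cell gene, in 1, as were Lyz2 and Pcna of the macrophage and cell cycle lists. With a replicate block S100a9 was called in the opposite direction, higher in mutant cells by 0.76 (adjusted p = 0.0472 by limma).

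**Figure D4:**
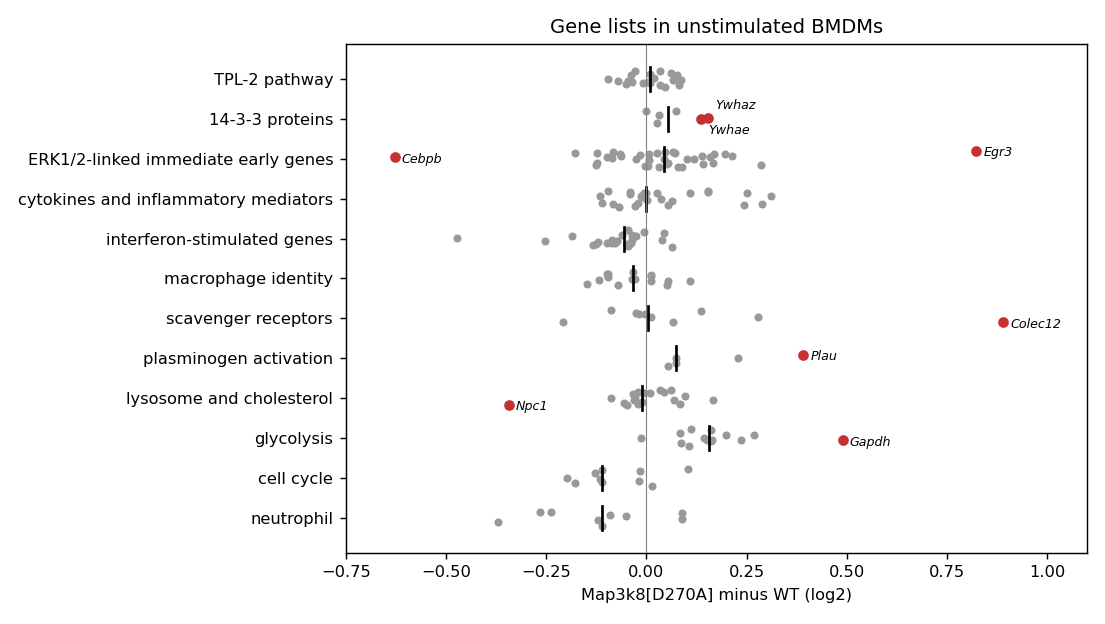
Difference between Map3k8[D270A] and WT unstimulated BMDMs (log2, horizontal axis) for each tested gene of 12 lists, with the list's median as a black bar and genes with an adjusted p below 0.05 in red and named. Points are spread vertically only for display. Egr3 at 0.82, Colec12 at 0.89, and Cebpb at -0.63 stand farthest from 0, and the 21 genes of the TPL-2 pathway lie between -0.10 and 0.09.

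Short transcripts made up much of the lower set. Of 79 ribosomal protein genes tested, 10 were lower (0.833% of all genes tested were) and 1, Rpl21, was higher (0.14, adjusted p = 0.0342), and 66 of 79 had a negative difference with a median of -0.08 (-0.05 and -0.11 in the 2 sets of replicates). The lower ones included Rps28, at 12.02, 12.26, and 12.36 in WT and at 11.70, 11.90, and 12.01 in mutant libraries (difference -0.35, adjusted p = 0.000940), and Rpl28 (-0.30, adjusted p = 0.000567). Without WT replicate 9 and Map3k8[D270A] replicate 4, the libraries with the highest neutrophil sums, 2 were lower and 0 higher, of 84 genes called in all. In the 12 unstimulated libraries alone 4 were lower, of 64 called in all, and with a term for the set of replicates 20 were, of 349. Of 91 oxidative phosphorylation genes 4 were lower and 0 higher, with a median of -0.04, namely Atp5k, Cox8a, Ndufa1, and Ndufa2. Among 7 ribosomal protein pseudogenes, Rps15a-ps6 (-0.93, adjusted p = 0.000808) and Rps19-ps3 (-0.87, adjusted p = 0.0147) were lower. The median of the 7 was -0.35, but it was -1.08 in the first set of replicates and 0.13 in the second. Reads of ribosomal protein pseudogenes, like those of Lyz1 with its paralog Lyz2, can be shared with near-identical copies, so the values of these loci are uncertain.

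The longest annotated transcript had a median of 1502 bases among the lower genes and 3950 among the higher ones, against 3368 over all genes tested. Among the 2362 genes with the shortest transcripts (86 to 1964 bases), 63 were lower and 7 higher, and the median difference was -0.04. Over all genes tested, 0.833% were lower and 0.606% higher. The GC content of the lower genes had a median of 53.6%, against 49.5% over all genes and 47.0% among the higher ones. Length moved with the sets of replicates too. The median deviation of short minus long genes was 0.046 to 0.109 in WT replicates 4 to 6 and 0.009 to 0.098 in Map3k8[D270A] replicates 1 to 3, which overlapped. In the second set it was -0.049 to -0.018 in WT and -0.135 to -0.089 in mutant libraries, which did not. The part of RNA quality or library preparation in the lower set was not tested.

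**Figure D5:**
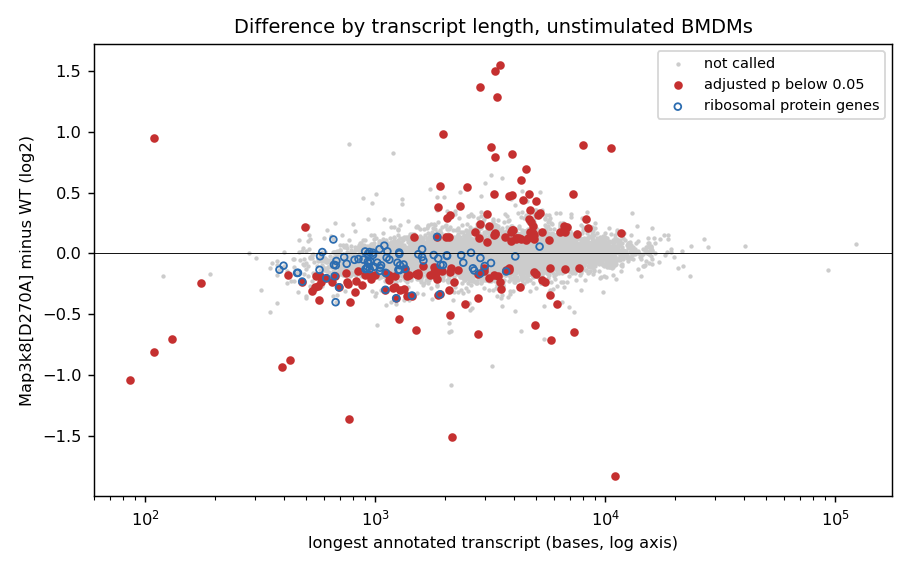
Difference between Map3k8[D270A] and WT unstimulated BMDMs (log2) against the length of the longest annotated transcript (bases, log axis) for each gene tested. Called genes in red below 0 gather at short lengths, where 63 of the 2362 shortest genes were lower and 7 higher (0.833% and 0.606% of all genes tested were), and the blue circles of the 79 ribosomal protein genes lie mostly below 0.

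The remaining hairpin and pseudogene loci followed both directions. Mir686 was at 2.27, 2.29, and 2.49 in WT and at 3.04, 3.21, and 3.56 in mutant libraries (difference 0.95, SE 0.19, adjusted p = 0.00157), and like Phyhip it passed the filter through mutant libraries alone. Mir703 (-0.81, adjusted p = 8.54e-06), Mir8112 (-0.70, adjusted p = 1.16e-06), and the pseudogene Gm8979 (-0.64, adjusted p = 0.000102) were lower, and none of the 4 overlapped between genotypes. F2rl2, a protease-activated receptor gene that lies within Iqgap2 on the opposite strand, was higher (0.54, SE 0.13, adjusted p = 0.0141). Its call was lost in 6 of 23 other settings, the 12 unstimulated libraries alone included.

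Other unstimulated BMDMs of the series give the range of these genes outside the comparison. In Gfra2, Phyhip, Ankrd29, and Cables1, the Map3k8[D270A] libraries lay above every library of Nfkb1[SS/AA], Elk1-/-Elk4-/-, RSKi47-treated, DMSO-treated, and PD0325901-treated WT cells. Ankrd29, for example, was at no more than 4.58 in any of them. Among the lower genes, Zeb1, Tmem241, and Npc1 of chromosome 18 stood apart in the same way: Npc1, for example, was at no more than 12.30 in mutant cells and at no less than 12.45 in any other group. The 4 changed lower genes did not. For Lrrc17, it was the untreated WT libraries, at 4.39 to 4.85, that were above all the others, and the WT cells treated with DMSO alone were at 3.14 to 3.35. Prex2 was at 4.58 to 5.24 in Nfkb1[SS/AA] libraries but at 3.75 to 3.98 in those of WT cells with DMSO, between mutant and untreated WT cells. AY074887 was at 4.07 to 4.31 in Elk1-/-Elk4-/- and at 3.93 to 4.37 in RSKi47-treated cells, as low as in Map3k8[D270A] cells. Over the 99 lower genes, the median difference from untreated WT was -0.23 in Map3k8[D270A], -0.16 in DMSO-treated WT, -0.30 in Elk1-/-Elk4-/-, -0.25 in RSKi47-treated, and -0.06 in Nfkb1[SS/AA] cells, and that over all genes tested was between -0.00 and 0.01 in each. These comparisons share the WT libraries, which also chose the genes.

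WT cells were also given the MKK1/2 inhibitor PD0325901 without LPS. Of the 37 immediate early and feedback genes, 0 passed against DMSO after 10 min, 8 were lower and 2 higher after 40 min, and 11 were lower and 3 higher after 70 min, with medians of -0.02, -0.05, and -0.14. The DMSO libraries were taken after 10 min of solvent, so for 40 and 70 min of inhibitor the inhibition and the longer time cannot be told apart. This control was itself near the mutant level for Cebpb (mean 9.48, against 9.57 in mutant and 10.20 in untreated WT cells) and Plau (13.397, against 13.46 and 13.07), so the baselines of the differences below are not the same. Limma found 0 genes after 10 min of the inhibitor against DMSO (245 at an unadjusted p below 0.05), 361 of 11971 after 40 min (3.02%), and 566 after 70 min (4.73%), and 0, 9, and 16 of the 171 genes were among them. After 70 min Egr3 differed by -1.05 (adjusted p = 3.47e-05), against 0.82 in mutant cells, and Cebpb by 1.09 (adjusted p = 3.88e-07), against -0.63. Plau differed by -0.84 (adjusted p = 1.42e-08), against 0.39. Fos and Dusp6, which did not pass in mutant cells, differed by -1.67 and -2.09. Mir684-1 was lower in both, with -1.29 after 70 min. So was Rps15a-ps6, with a mean of 9.12 after 70 min against 9.95 with DMSO. The directions of the others of the 16 are not given here. After 70 min Ankrd29, Cables1, Gfra2, and Phyhip had differences of 0.11, -0.01, -0.09, and 0.09. These inhibitor values were not tested against those of the mutation, and the inhibitor was given for minutes and the mutation throughout development.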

How the data were processed

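The authors made libraries with a TruSeq RNA kit, sequenced single-end, strand-specific reads, and aligned and counted them with STAR and RSEM per RefSeq gene of mm10 (STAR 2.5.1b, RSEM 1.2.29, and DESeq2 1.10.1 per the submitters' processing notes, and other versions of STAR and RSEM in the methods). The deposited values are on a log2 scale, normalized by a transformation not given in the sources used here, from -2.40 to 19.81 over 18098 genes; 1 value above 25, outside the comparison, was treated as missing. Counts and the depth of single libraries could not be recovered, so a test of values took the place of a count test.

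Groups came from the sample labels. Genes that reached 10 on the linear scale in 4 or more of 62 libraries (WT, Map3k8[D270A], and Elk1-/-Elk4-/- at all times) were fitted with limma 3.58.1 in R 4.3.3, without a trend, with 1 mean per group; the other arms came from a fit of all libraries (10 in 3 libraries). A gene was called at an adjusted p below 0.05 and changed if the difference was also at least 1. The fit was tested on simulated data.

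The text names Map3k8, each changed gene, the 12 genes with the largest difference in each direction among called genes without overlap, each called list member, and, for a list with none, up to 3 members with the highest mean. Other genes, including those near Map3k8 and on chromosome 14, were named after their values were seen. The members and lists were chosen with earlier results of these data known. Positions and lengths are of GENCODE vM21 and RefSeq on GRCm38 (mm10); 17293 symbols matched directly, 732 by synonym, and 73 not at all. Some genes of the lists are not reported here.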

Additional observations from a re-analysis of the deposited data

Results flagged for a closer look

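Values of 54 genes named or listed here were compared within each group of 6 unstimulated libraries, and in 6 of 108 such groups 1 library lay apart from the other 5 by more than Dixon's critical value; chance gives about 1 in 20 groups. Map3k8[D270A] replicate 4 was the library in 3 of them, highest in Ccl9 (15.30) and Mmp8 (9.90) and lowest in Lck (3.18). WT replicate 9 was highest in Mir686 (2.49) and Cebpb (10.38), and WT replicate 6 in Gm8979 (7.18). These libraries include the 2 with the highest neutrophil sums.

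The mutant minus WT difference after LPS departed from that without LPS in these 6 of the genes chosen by the naming rule and called without LPS (interaction contrasts of limma, adjusted over all genes). For Egr3 the change of the difference was -1.98 at 0.5 h, -2.51 at 1 h, and -1.45 at 2 h. For Cebpb it was -0.91 at 2 h (adjusted p = 0.000342). For Gm9199 it was 0.37 at 1 h and 0.43 at 2 h, for Tmem241 0.20 at 2 h, and for Mir8112 0.46 at 2 h, each toward a smaller difference. For Ywhaz it was -0.18 at 1 h and -0.29 at 2 h, and Ywhaz was lower in mutant cells by then (-0.14 at 2 h, adjusted p = 0.00726). Mir8112 is among the genes whose difference at 1 h departed between the 2 sets of replicates, and the cause was not tested.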

How the results depend on the processing

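The 8 changed genes were also those with the 12 unstimulated libraries alone, without a filter, with a mean-variance trend, with median centring, with quantile normalization, and with a term for the set of replicates. A filter at 50 left 2 changed genes (AY074887 and Cables1). WT replicates 4 to 6 with Map3k8[D270A] replicates 1 to 3 alone gave 21, 7 of them shared. A size of at least 1.5-fold gave 26, the natural logarithm of 2 gave 21, and no threshold on size 171. Leaving out 1 library gave 7 to 10, and without WT replicate 8 or 9 the difference of Mir684-1 was under 1 in size, with the gene still called.

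The 171 called genes became 64 in the 12 libraries alone, 349 with the term for the set of replicates, 579 and 81 in the first and second sets alone, and 84 without WT replicate 9 and Map3k8[D270A] replicate 4 (this last setting was added once the data had been seen; Mir684-1 was then not changed and Abhd3 was). Without 1 library they numbered 81 to 249, with 81 without Map3k8[D270A] replicate 4, 96 without WT replicate 5, 104 without WT replicate 6, and 249 without WT replicate 9. On chromosome 18 the 20 called genes became 11 in the 12 libraries alone, 33 and 13 in the 2 sets alone, and 15 to 19 without 1 library. On chromosome 14 the 20 became 8, 31, and 6, and 10 to 21 without 1 library: 10 without WT replicate 5 or 8, 11 without WT replicate 6, and 12 without Map3k8[D270A] replicate 4 or 5. The 39 genes that recurred at each LPS time became 25 in the 12 libraries alone, 22 in the second set, and 33 to 39 without 1 library. The cause was not tested.

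The labels of WT and Map3k8[D270A] libraries share the numbers 4 to 6. Deviations of same-numbered libraries had correlations of -0.40 to -0.20. These 3 pairs all cross the sets of replicates, so their correlations cannot show whether the shared number pairs the libraries. Deviations had a median correlation of 0.30 within the sets of replicates named here and of -0.32 between them, a hint from the data and not from the labels. Deviations are taken from the mean of each genotype, so the negative value between sets follows from the positive one within them. The replicate block is by number, so it compares genotypes only between WT replicates 4 to 6 and mutant replicates 4 to 6. These belong to different sets, and under the block the genotype and the set cannot be told apart. It gave 31 changed genes (6 shared), 773 called genes (60 shared), and 20 recurring ones. Under it S100a9 was higher by 0.76 (adjusted p = 0.0472), against -0.26. Gfra2 missed the threshold under the block (adjusted p = 0.0627) and in the second set (adjusted p = 0.300), and Cebpb in the first set (adjusted p = 0.0510). Tnfrsf10b, Gm9199, and Gapdh missed it in the second set, and Psma8 and Npc1 under the block. Plau missed it under 11 settings and Ywhae, Ywhaz, and F2rl2 under 6 each. Scaling moved the median over all genes by less than 0.01.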
